A study of Mus musculus with 11 samples.

Results

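Strong promoter peaks are open chromatin regions that the authors' annotation places within 1 kb of a transcription start site and whose mean normalised count over all libraries is at least 300. By this rule 2704 of the 94410 peaks of the study were chosen, which is 2.86% of all peaks and 14.9% of the 18102 promoter peaks. They held 20.2% of the summed mean level of all peaks and belonged to 2678 genes. The level that chose them is an average over all libraries, so levels are given below as a description without a test. The members nearest above the threshold were the promoters of Sugt1 (300.03 normalised counts), Calcoco1 (300.3) and Rfwd3 (300.4), and those nearest below it were Cers5 (299.99), Psmd5 (299.87) and Clasp2 (299.83), all from the authors' deposited tables.

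The assay was ATAC-seq, whose transposase cuts accessible DNA and inserts sequencing adapters. It was run on haematopoietic stem cells (HSCs) isolated from the bone marrow of mice at steady state. All mice carried the genotype Gfplc3/Gfplc3, a GFP-LC3 reporter that marks autophagosomes. The groups were old AThi HSCs with low GFP, labelled as engaging autophagy (3 libraries), old ATlo HSCs with high GFP (3 libraries), and young HSCs that were not fractionated (5 libraries). The old libraries form 3 pairs, and isolation and transposition took 2 days. Because young HSCs were not sorted by GFP, age cannot be told apart from fractionation when either old group is set against them, and the same 5 young libraries serve both times. The sources used here do not give sex, age in numbers, the animals behind a library, or the day and depth of each library. The p-values therefore measure only how far these libraries spread, which may be technical. The deposited tables hold comparisons and a mean level per peak, with no value per library. Where a level is given for a group below, it was computed from the authors' mean level and both fold changes, and it carries no spread of its own.

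A promoter is the stretch around a start site where RNA polymerase II and its general factors assemble, and at active genes it is kept free of nucleosomes. Many genes that all cells use have promoters rich in CpG dinucleotides, which are open in most cell types. HSCs are the rare, mostly quiescent marrow cells from which all blood lineages derive, and their output and chromatin are known to change with age. An open promoter is not a measurement of transcription. In a bulk sample, a lower signal in every cell and a closed promoter in a share of the cells cannot be told apart.

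Marker genes of HSCs and of other cells were looked up among all promoter peaks. Of 19 HSC marker genes, 18 had a promoter peak, with a median highest level of 166 normalised counts, and Ly6a had none. Of the markers of other cells, 3 of 7 B cell genes, 3 of 8 T cell genes, 4 of 10 myeloid genes, 3 of 7 erythroid genes and 11 of 12 endothelial and stromal genes had one. Some of these lay above the HSC median, namely the erythroid genes Epor (229) and Klf1 (227) and the stromal gene Pdgfra (214), as mean normalised counts in the authors' deposited tables. Among the strong promoters were 4 HSC markers, which were Kit (342), the stem cell factor receptor, and Mecom (414), Tal1 (301) and Ctnnal1 (359) in the same authors' deposited tables, and 0 of the other markers. The other 15 HSC markers were not members, and since level chose the members, membership is no test of the label.

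To show what such promoters look like, RefSeq windows of the build GRCm38.p6 are printed for 3 promoters that were higher and 3 that were lower in old HSCs than in young HSCs, and for Sp1, one of the strongest. Each runs from 250 bases before to 50 bases after the start site, 5′ to 3′ on the gene's strand. Windows were matched by gene identifier, since the peaks use mm39. They lie at chr1:36511617-36511916 (plus strand) for Cnnm3, chr10:62920383-62920682 (plus) for Slc25a16, chr12:70347565-70347864 (minus) for Trim9, chr7:79466224-79466523 (minus) for Polg, chr3:30601837-30602136 (plus) for Mynn, chr13:91460847-91461146 (plus) for Ssbp2 and chr15:102406066-102406365 (plus) for Sp1. Capitals mark, on either strand, the GC box GGGCGG, the CCAAT box CCAAT, the ETS motif CCGGAAGT, the NRF1 core GCGCATGC, the AP-1 motif TGANTCA, the YY1 core ATGGCGG, the E-box CACGTG and the CRE TGACGTCA.
Cnnm3: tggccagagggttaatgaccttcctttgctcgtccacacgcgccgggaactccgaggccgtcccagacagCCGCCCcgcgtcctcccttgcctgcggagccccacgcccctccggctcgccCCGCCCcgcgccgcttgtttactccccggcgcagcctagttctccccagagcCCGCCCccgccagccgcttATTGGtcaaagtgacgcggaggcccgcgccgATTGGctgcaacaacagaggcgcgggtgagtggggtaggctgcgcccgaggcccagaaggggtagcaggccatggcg
Slc25a16: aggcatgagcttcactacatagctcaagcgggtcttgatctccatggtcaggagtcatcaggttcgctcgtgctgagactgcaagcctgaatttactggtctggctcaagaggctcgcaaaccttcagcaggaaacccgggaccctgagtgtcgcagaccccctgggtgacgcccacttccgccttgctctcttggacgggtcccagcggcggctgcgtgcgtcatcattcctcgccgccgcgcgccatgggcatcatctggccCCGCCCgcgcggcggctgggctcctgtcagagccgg
Trim9: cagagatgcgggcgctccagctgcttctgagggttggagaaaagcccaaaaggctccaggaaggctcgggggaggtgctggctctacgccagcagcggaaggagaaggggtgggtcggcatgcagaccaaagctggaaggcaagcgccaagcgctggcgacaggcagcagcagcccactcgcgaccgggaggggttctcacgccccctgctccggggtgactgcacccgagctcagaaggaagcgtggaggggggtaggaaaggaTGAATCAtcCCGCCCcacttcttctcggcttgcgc
Polg: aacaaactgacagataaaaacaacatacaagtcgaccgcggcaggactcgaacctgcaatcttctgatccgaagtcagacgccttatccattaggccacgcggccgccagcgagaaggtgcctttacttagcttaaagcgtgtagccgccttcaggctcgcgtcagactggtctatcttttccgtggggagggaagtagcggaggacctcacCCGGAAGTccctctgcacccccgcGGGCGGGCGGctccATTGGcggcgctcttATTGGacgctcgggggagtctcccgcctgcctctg
Mynn: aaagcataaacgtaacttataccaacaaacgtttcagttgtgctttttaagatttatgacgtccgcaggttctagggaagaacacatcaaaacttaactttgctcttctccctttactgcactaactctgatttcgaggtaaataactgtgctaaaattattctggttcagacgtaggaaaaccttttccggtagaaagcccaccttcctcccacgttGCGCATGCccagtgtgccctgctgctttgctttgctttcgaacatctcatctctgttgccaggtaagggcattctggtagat
Ssbp2: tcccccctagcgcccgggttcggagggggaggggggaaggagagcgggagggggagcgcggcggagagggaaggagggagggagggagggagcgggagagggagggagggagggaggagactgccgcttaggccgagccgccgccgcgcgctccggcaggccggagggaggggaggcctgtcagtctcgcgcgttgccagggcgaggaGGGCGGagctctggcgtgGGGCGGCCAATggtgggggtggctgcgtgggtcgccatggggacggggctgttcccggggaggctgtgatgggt
Sp1: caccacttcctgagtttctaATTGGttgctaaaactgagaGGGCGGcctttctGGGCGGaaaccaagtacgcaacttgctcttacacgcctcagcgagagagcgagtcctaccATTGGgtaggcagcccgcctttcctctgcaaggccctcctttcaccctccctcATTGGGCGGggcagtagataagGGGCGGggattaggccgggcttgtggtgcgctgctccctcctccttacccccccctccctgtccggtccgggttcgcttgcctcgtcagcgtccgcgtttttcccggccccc

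In these windows the GC content was 70.7% for Cnnm3, 63.7% for Slc25a16, 65.0% for Trim9, 59.3% for Polg, 43.0% for Mynn, 75.3% for Ssbp2 and 61.7% for Sp1. The GC box occurred 3 times in the Cnnm3 window, 1 time each at Slc25a16 and Trim9, 2 times each at Polg and Ssbp2, and 4 times at Sp1. It was not found in the Mynn window, which held an NRF1 core. In the Sp1 window a CCAAT box, read on the minus strand, and a GC box overlap by 2 bases, and both GC boxes of the Polg window overlap each other. The Trim9 window also held an AP-1 motif and the Polg window an ETS motif.

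A single RefSeq window could be assigned to 1674 of the 2678 genes. Their windows had a median GC content of 64.3%, against 59.7% in 7675 other genes with a promoter peak and 52.3% in all 22862 genes with 1 window. The ratio of observed to expected CpG had a median of 0.83 at strong promoters, against 0.70 and 0.37 in the same sets. A GC box lay in 79.7% of strong promoter windows, against 58.6% of the windows of other genes with a promoter peak and 35.2% of all windows. The CCAAT box lay in 52.9%, against 34.96% and 38.2%, and the YY1 core in 9.32%, against 6.68% and 4.23%. For motifs of factor families with known roles in blood cells, the GATA motif AGATAA lay in 3.11% of strong promoter windows, against 7.30% and 11.5%, the RUNX motif TGTGGTT in 2.45%, against 4.13% and 5.42%, and the ETS motif in 6.33%, against 6.72% and 3.95%. No difference between these shares was tested. The TATA box TATAAA lay in 5.56%, against 8.14% and 14.8%. A match of letters is a description and not a bound site.

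Of the strong promoter peaks, 2663 (98.5%) lay over the annotated start site, against 76.1% of the other promoter peaks. The remaining 24 lay downstream of it and 17 upstream. They were 547 to 4100 bp wide with a median of 1531 bp, against 1222 bp at promoter peaks of 100 to 300 normalised counts (middle promoters, 7537 peaks), 642 bp below 100 (weak promoters, 7861 peaks) and 547 bp over all peaks. Per kb of peak, the median level was 270 normalised counts at strong promoters, 147 at middle promoters, 59.8 at weak promoters and 274 at the 502 peaks outside promoters that also reached 300. An opposite-strand start site lay within 1 kb of 298 of them (11.02%), against 6.42% of middle and 4.31% of weak promoter peaks.

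The level had quartiles of 340, 397 and 490 normalised counts. It reached 500 at 639 members and 1000 at 18. The highest value, 17296.5 in the authors' deposited tables, belonged to a peak of 4100 bp on chromosome 17 (chr17:40153937-40158036, mm39) whose gene identifier carries no symbol in the tables used. Its log2 change in the authors' deposited tables was 0.44 (SE 0.28) in old AThi and 0.30 (SE 0.28) in old ATlo HSCs against young HSCs, neither of which was called. Far below it followed, by mean normalised count in the authors' deposited tables, Ppp2r3d, a protein phosphatase 2A subunit gene (1392), Sp1, the factor that binds GC boxes (1322), Gsk3b, a kinase of the Wnt and insulin pathways (1234.4), and Egr1, an immediate early zinc finger factor (1224). Jund (1170), a subunit of AP-1, Usp5 (1163), a deubiquitinase, Ywhaz (1147), a 14-3-3 protein, Srgap2 (1123), a GTPase activator, and Zfp687 (1083), a zinc finger protein, came next in the authors' deposited tables. Of these 9 named promoters, Ppp2r3d was lower in old ATlo HSCs (log2 -0.53, SE 0.14, adjusted p = 0.00437, authors' deposited table), and it was not called when every log2 change was shifted so that the median strong promoter stood at 0 (adjusted p = 0.3). None of the others was called in either comparison with young HSCs. The widest named peaks were those of Ppp2r3d (3416 bp), Cpeb2 (3295 bp), Rreb1 (3094 bp), Tsc22d2 (3059 bp) and Ing2 (2988 bp).

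The first comparison asks how promoters of old AThi HSCs differ from those of young HSCs. Strong promoters lay lower as a group: the median log2 change was -0.22, which is 13.9% less signal, and 84.3% of them had a change below 0. Over all peaks the median was -0.04, at middle promoters -0.14, at weak promoters 0.00 and at strong peaks outside promoters -0.14. At an adjusted p under 0.05 in the authors' deposited table, 308 strong promoters were called, against 10.3% of all tested peaks in either direction. Of these, 43 were higher in old AThi HSCs (1.59%, against 7.57% of all tested peaks), while 265 were lower (9.80%, against 2.74%). Changes were small. Called higher peaks had log2 changes of 0.36 to 1.13 with a median of 0.55, and called lower peaks of -0.86 to -0.35 with a median of -0.47. Of all tested peaks, 7.22% were higher and 2.06% lower by at least 1.5-fold, against 20 and 34 of the 2704 strong promoters. At 1733 members (64.1%) the whole 95% interval lay within 1.5-fold of no change. The median SE was 0.15 at strong promoters and 0.33 over all peaks, so smaller changes could be called here than at most peaks.

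Old ATlo HSCs were set against the same young libraries. The median log2 change was -0.30, or 18.7% less signal, and 92.5% of strong promoters had a change below 0, while the median was -0.03 over all peaks, -0.20 at middle promoters, 0.00 at weak promoters and -0.20 at strong peaks outside promoters. The authors' deposited table called 21 strong promoters higher in old ATlo HSCs (0.777%, against 6.88% of all tested peaks) and 563 lower (20.8%, against 2.54%). In either direction these were 584, against 9.42% of all tested peaks. The higher ones had log2 changes of 0.39 to 0.97 (median 0.53), and the lower ones of -1.04 to -0.35 (median -0.48). A change of at least 1.5-fold was called at 7 higher and 65 lower strong promoters, against 6.6% and 1.38% of all tested peaks. The 95% interval lay within 1.5-fold of no change at 1345 members (49.7%).

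**Figure D1:**
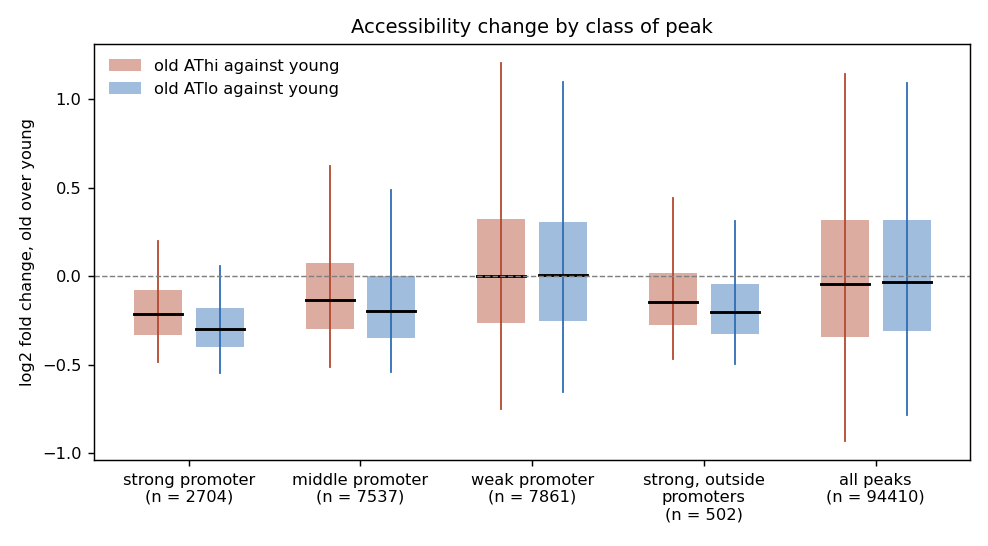
Log2 fold change of old AThi (red) and old ATlo (blue) over young HSCs by class of peak, with n peaks below each class. Black bars are medians, boxes the middle 50% of peaks and lines the 5th to the 95th percentile; the strong promoter boxes lie wholly below 0, with medians of -0.22 and -0.30, and those of weak promoters are centred on 0.

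The split of these counts by direction depends on which median is taken as 0. When 0.22 was added to every log2 change in old AThi and 0.30 in old ATlo HSCs, so that the median strong promoter stood at 0, 143 were higher and 9 lower in old AThi HSCs (all peaks 13.3% and 0.903%), and 113 were higher and 5 lower in old ATlo HSCs (all peaks 16.6% and 0.334%). With the median of all peaks set to 0 instead, lower calls still outnumbered higher ones. The counts were then 58 higher and 157 lower in old AThi HSCs and 23 higher and 374 lower in old ATlo HSCs. Centring on strong promoters takes away their shared change by construction, so it cannot show whether they changed as a group. Changes of single promoters are therefore read below against the strong promoter median as well as against 0.

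The changes were set against level and width, each in 4 classes of about equal size. From the lowest to the highest class of level, with 676 promoters in each, the median log2 change was -0.17, -0.21, -0.22 and -0.24 in old AThi HSCs, and -0.25, -0.29, -0.31 and -0.33 in old ATlo HSCs, both against young HSCs. The median thus lay lower in each higher class. The share called lower in old ATlo HSCs was 13.3% in the lowest class and 29.4% in the highest. Higher calls in old AThi HSCs numbered 18, 14, 5 and 6 over the same classes, but level also chose the members. Of the 43 promoters called higher in old AThi HSCs, 24 had a computed level below 300 in young HSCs, and so did 14 of the 21 called higher in old ATlo HSCs. Of the lower calls, 76 of 265 in old AThi and 142 of 563 in old ATlo HSCs had a computed level below 300 in that old group. These counts over level are therefore a description that the threshold in part fixes. The median SE in old AThi HSCs was 0.15 in the lowest and 0.14 in the highest class. By width, the class medians lay between -0.20 and -0.23 in old AThi HSCs and between -0.29 and -0.31 in old ATlo HSCs.

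**Figure D2:**
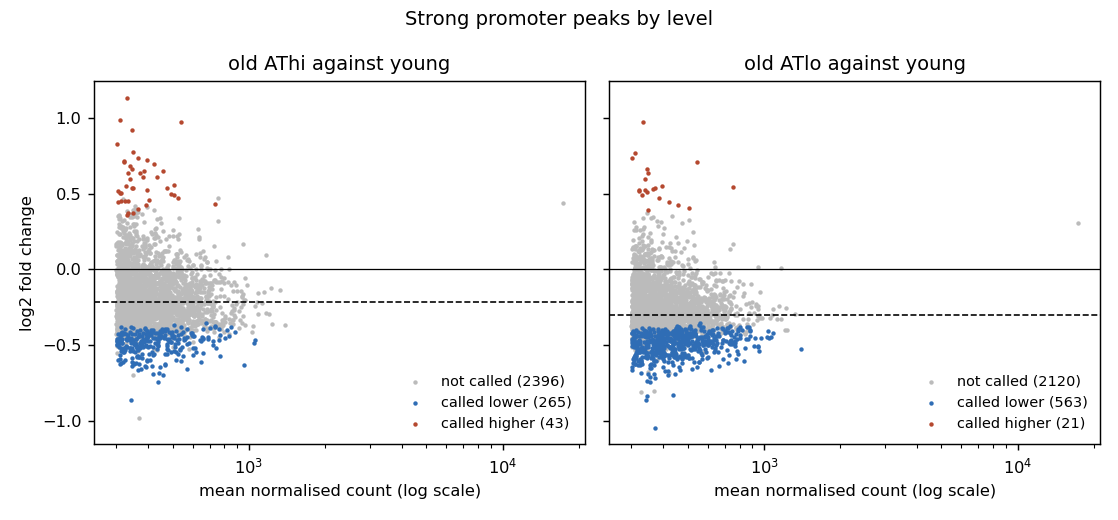
Log2 fold change against young HSCs (vertical axis) by mean normalised count on a log scale (horizontal axis) for the 2704 strong promoter peaks, old AThi left and old ATlo right. Red and blue points are called higher and lower at an adjusted p under 0.05, and the dashed line is the median; the called higher points lie mostly at the low end of the level range, which the threshold in part fixes since the level averages old and young libraries, and the lone point at the far right is the peak of 17296.5 normalised counts.

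In the authors' deposited table the smallest adjusted p in old AThi HSCs belonged to Cnnm3, of the CNNM family linked to magnesium transport (chr1:36550437-36551963, mm39; log2 0.97, SE 0.16, adjusted p = 6.22e-08). Its computed levels were 742 normalised counts in old AThi HSCs and 617 in old ATlo HSCs, against 377 in young HSCs. Slc25a16, a mitochondrial solute carrier, had computed levels of 419 in old AThi and 361 in old ATlo HSCs, against 212 in young HSCs. Its log2 changes in the authors' deposited tables were 0.98 (SE 0.17) in old AThi and 0.77 (SE 0.16) in old ATlo HSCs. The change past 2-fold in old AThi HSCs was that of Iqcn on chromosome 8 (chr8:71153941-71154487), whose peak of 547 bp lies upstream of its start site near Jund, and it was the only one. In the authors' deposited tables it had a log2 change of 1.13 (SE 0.19) in old AThi and of 0.97 (SE 0.19) in old ATlo HSCs. The neighbouring Jund promoter had 0.09 (SE 0.11) and 0.01 (SE 0.11) in the authors' deposited tables and was not called, although both passed with the strong promoter median set to 0 (adjusted p = 0.0394 and 0.0344).

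In the authors' deposited table, log2 changes in old AThi HSCs were 0.83 (SE 0.15) at Ppp1r3d, a glycogen-targeting subunit of protein phosphatase 1, 0.77 (SE 0.14) at Pm20d2, a dipeptidase, and 0.74 (SE 0.14) at Amacr, a racemase of branched fatty acid oxidation. The same promoters had 0.73 (SE 0.15), 0.64 (SE 0.14) and 0.53 (SE 0.14) in old ATlo HSCs in the authors' deposited table, and all were called there. Espn, which bundles actin, had 0.72 (SE 0.13) in old AThi and 0.52 (SE 0.13) in old ATlo HSCs, and the ubiquitin ligase Trim9 had 0.64 (SE 0.12) and 0.54 (SE 0.12), in the authors' deposited tables. The receptor tyrosine phosphatases of cell contacts Ptprm and Ptprk had 0.66 (SE 0.14) and 0.59 (SE 0.15) in old AThi HSCs and 0.51 (SE 0.14) and 0.60 (SE 0.15) in old ATlo HSCs, again in the authors' deposited tables. Prrc2b (0.92, SE 0.17) and Amotl2 (0.55, SE 0.13), an angiomotin of the Hippo pathway, were also called in old AThi HSCs, and in old ATlo HSCs with 0.66 (SE 0.17) and 0.49 (SE 0.13), per the authors' deposited tables. All 12 of these promoters stayed called in both comparisons when the strong promoter median was set to 0. That shift raises every log2 change, so it moves higher promoters further from 0 and is no check of these calls.

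Some promoters were called higher in old AThi HSCs and not in old ATlo HSCs. Zfx, an X-linked factor needed for stem cell renewal, had log2 changes of 0.61 (SE 0.16, adjusted p = 0.00217) in old AThi and 0.28 (SE 0.16, adjusted p = 0.271) in old ATlo HSCs in the authors' deposited tables. Ldb1, the cofactor that bridges LIM and GATA factors, had 0.52 (SE 0.17) and 0.18 (SE 0.17), and Socs3, the feedback inhibitor of cytokine receptors, 0.49 (SE 0.15) and 0.19 (SE 0.15), in the same order in the authors' deposited tables. Computed levels of Socs3 were 607 normalised counts in old AThi and 490 in old ATlo HSCs, against 431 in young HSCs. The direct comparison of the old fractions did not call any of these, with log2 changes of 0.32 (SE 0.17, p = 0.056) at Zfx and 0.31 (SE 0.16, p = 0.0572) at Socs3 in the authors' deposited table, so a difference between the fractions was not shown. With the strong promoter median set to 0, Zfx, Ldb1 and Socs3 were also called higher in old ATlo HSCs (adjusted p = 0.00228, 0.0306 and 0.0105). Others called in old AThi HSCs alone, by the authors' deposited table, were Arid1b, a subunit of the BAF remodelling complex (0.47, SE 0.15), Bag3, a co-chaperone of selective autophagy (0.45, SE 0.14), Slc16a1, the lactate transporter MCT1 (0.45, SE 0.15), and Tagln2, an actin-binding protein (0.43, SE 0.14). Like the first 3, they passed in old ATlo HSCs too after that shift.

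Among the lower promoters, Mynn, a zinc finger protein, and Ssbp2, a partner of Ldb1 complexes, had the smallest p in old AThi HSCs and nearly the same change in old ATlo HSCs. Computed levels of Ssbp2 (chr13:91608361-91609675) were 249.9 normalised counts in old AThi and 249.8 in old ATlo HSCs, against 453 in young HSCs. In the authors' deposited tables its log2 change was -0.86 (SE 0.19) in both old groups, with an adjusted p of 0.000162 in old AThi and 0.000169 in old ATlo HSCs. Mynn (chr3:30656004-30657268) had -0.69 (SE 0.15) in both in the authors' deposited tables. With the strong promoter median set to 0, Ssbp2 (adjusted p = 0.0069 in old AThi and 0.019 in old ATlo HSCs) and Mynn (adjusted p = 0.015 and 0.045) were still called lower.

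The lower promoter of smallest p in old ATlo HSCs was that of Polg, the catalytic subunit of the mitochondrial DNA polymerase (chr7:79115241-79116769). Its computed levels were 330.4 normalised counts in old AThi HSCs and 278 in old ATlo HSCs, against 448 in young HSCs. The log2 change in the authors' deposited tables was -0.44 (SE 0.14, adjusted p = 0.0189) in old AThi and -0.69 (SE 0.14, adjusted p = 3.42e-05) in old ATlo HSCs. Against the strong promoter median it was still called in old ATlo HSCs (adjusted p = 0.031) and no longer in old AThi HSCs (adjusted p = 0.32).

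For old AThi HSCs, log2 changes taken from the authors' deposited table included -0.63 (SE 0.14) at Hspa8, the constitutive chaperone Hsc70, -0.60 (SE 0.15) at Dusp6, an ERK phosphatase, and -0.65 (SE 0.16) at Eed, a core subunit of Polycomb complex PRC2. Gtf3c6, of the RNA polymerase III factor TFIIIC, had -0.56 (SE 0.13), Gbe1, the glycogen branching enzyme, -0.63 (SE 0.16), and Rassf2, a Ras association protein, -0.62 (SE 0.15), in the same authors' deposited table. Those for old ATlo HSCs, again from the authors' deposited table, included -0.67 (SE 0.15) at Yy1, a zinc finger factor of promoters and chromatin loops, -0.63 (SE 0.14) at Ccnd2, a G1 cyclin, -0.72 (SE 0.16) at Cks2, a subunit of cyclin-dependent kinases, and -0.66 (SE 0.15) at the corepressor Tle4. Phf13, a reader of histone H3 methylation, had -0.74 (SE 0.17), Epc2, of the TIP60 acetylase complex, -0.64 (SE 0.14), and the mRNA export adaptor Alyref2 -0.69 (SE 0.15) in old ATlo HSCs in the authors' deposited table. All of these were lower in both old groups at an adjusted p under 0.05. With the strong promoter median set to 0, Hspa8, Eed, Gbe1 and Alyref2 stayed called in old AThi HSCs, while Dusp6, Gtf3c6 and Rassf2 did not, and none of Yy1, Ccnd2, Cks2, Tle4, Phf13, Epc2 and Alyref2 did in old ATlo HSCs.

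**Figure D3:**
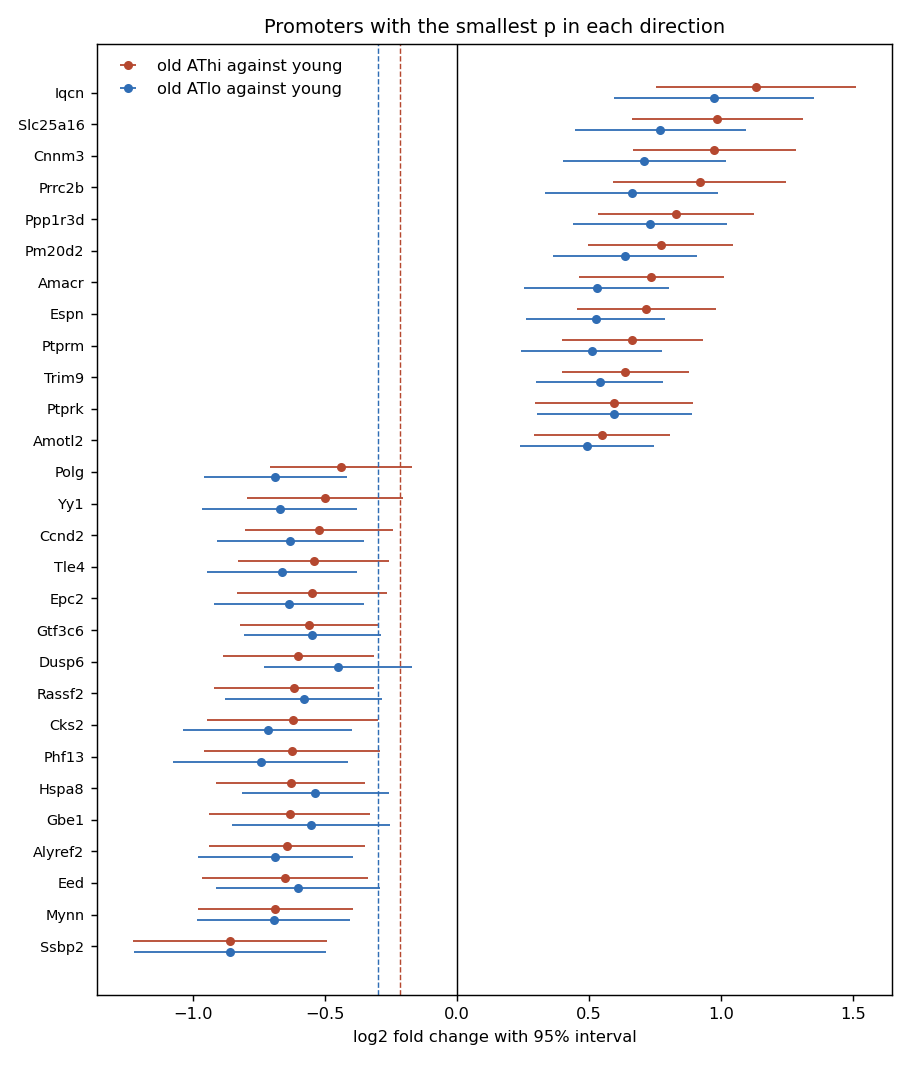
Log2 fold change against young HSCs, with 95% intervals, for the promoters of smallest p in each direction and comparison that are reported here, old AThi (red) above old ATlo (blue) for each gene. Dashed lines are the medians of all strong promoters, -0.22 and -0.30. The 12 higher promoters lie clear of 0 and of both medians in both old groups. All of these but Cnnm3 had a computed level below 300 in young HSCs, so the level rule in part fixes their direction. The intervals of most lower promoters end close to the medians.

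Genes were grouped into 35 lists by function, and each list was read against the shares among all strong promoters, 1.59% higher and 9.80% lower in old AThi HSCs and 0.777% and 20.8% in old ATlo HSCs. No list was tested as a set. Of 25 peaks at heat shock and chaperone genes, 1 was higher and 7 lower in old AThi HSCs and 0 were higher and 11 lower in old ATlo HSCs, with medians of -0.31 and -0.37. With the strong promoter median set to 0, 1 was higher and 1 lower in old AThi HSCs and 1 higher and 0 lower in old ATlo HSCs. The lower genes include cytosolic and mitochondrial chaperones. In the authors' deposited tables Hsp90aa1 had log2 changes of -0.53 (SE 0.16) in old AThi and -0.59 (SE 0.16) in old ATlo HSCs, and Cct5, a chaperonin subunit, had -0.54 (SE 0.15) and -0.58 (SE 0.15). Hspd1, the mitochondrial chaperonin, had -0.45 (SE 0.15) and -0.51 (SE 0.15) in the authors' deposited tables. Bag3 was the exception, higher in old AThi HSCs as given above.

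Of 11 peaks at DNA methylation and Polycomb genes, 0 were higher and 3 lower in old AThi HSCs (median -0.34) and 0 were higher and 5 lower in old ATlo HSCs (median -0.40), against 2 higher and 1 lower and 1 higher and 0 lower with the strong promoter median set to 0. The lower genes were Eed, Jarid2, which recruits PRC2 and had -0.51 (SE 0.16) in old AThi and -0.68 (SE 0.16) in old ATlo HSCs in the authors' deposited tables, the DNA glycosylase gene Mbd4, and, in old ATlo HSCs, Rbbp4 and Tet3. Tet3 has 2 strong promoter peaks, and in the authors' deposited table for old ATlo HSCs they had log2 changes of 0.06 (SE 0.13) and -0.54 (SE 0.16), of which the second was called. With the strong promoter median set to 0, the second was no longer called there (adjusted p = 0.338). The first Tet3 peak was then called higher (adjusted p = 0.0415). Among 41 peaks of histone modifiers and remodellers, 1 was higher and 2 lower in old AThi HSCs and 0 were higher and 10 lower in old ATlo HSCs, and after centring on strong promoters 1 was higher and 0 lower in each. Kat6b, an acetylase, had -0.31 (SE 0.13) in old AThi and -0.51 (SE 0.13) in old ATlo HSCs, and Nsd1, a methylase, -0.28 (SE 0.15) and -0.52 (SE 0.15), in the authors' deposited tables, both called in old ATlo HSCs.

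Lists of RNA processing and protein synthesis had shares of lower calls on either side of those among all strong promoters. Of 26 peaks at splicing factor and hnRNP genes, 3 were lower in old AThi HSCs and 10 in old ATlo HSCs, with none higher, whereas after centring 1 was higher and 1 lower in old AThi HSCs and none was called in old ATlo HSCs. Hnrnph3 had -0.48 (SE 0.14) in old AThi and -0.57 (SE 0.14) in old ATlo HSCs in the authors' deposited tables. Of 11 promoters of cytosolic ribosomal proteins, 3 were lower in old AThi and 5 in old ATlo HSCs, and of 12 of mitochondrial ribosomal proteins 3 and 2, with none higher and, after centring, none called in either direction. Rpl37 had -0.49 (SE 0.14) in both old groups, and Mrpl40 -0.50 (SE 0.14) in old AThi and -0.49 (SE 0.13) in old ATlo HSCs, in the authors' deposited tables. Among 19 peaks of translation initiation and elongation factors, none was called in old AThi HSCs and 5 were lower in old ATlo HSCs, none of them after centring, with -0.40 (SE 0.18) and -0.58 (SE 0.17) at Eef1g in the authors' deposited tables. The 43 zinc finger promoters of the Zfp genes had 6 lower in old AThi and 10 lower in old ATlo HSCs with none higher, and after centring 2 and 1 higher with none lower. Zfp91, known as a ubiquitin ligase of NF-kB signalling, had -0.57 (SE 0.15) in old AThi and -0.59 (SE 0.15) in old ATlo HSCs in the authors' deposited tables.

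By the deposited calls, stem cell transcription factors had both higher and lower promoters in old AThi HSCs only. Of their peaks, 13 lay below 0 in old AThi and 14 in old ATlo HSCs. Of 16 peaks, 2 were higher (Zfx and Ldb1) and 2 lower in old AThi HSCs, and 0 were higher and 4 lower in old ATlo HSCs, while after centring on strong promoters 2 were higher and none lower in each. Mef2c, a MADS box factor, had log2 changes of -0.48 (SE 0.14) in old AThi and -0.46 (SE 0.14) in old ATlo HSCs in the authors' deposited tables. Mecom, a zinc finger factor of long-term HSCs, had -0.38 (SE 0.14, adjusted p = 0.0516) in old AThi and -0.50 (SE 0.14, adjusted p = 0.00642) in old ATlo HSCs, in the authors' deposited tables. The stronger of both strong peaks of Lyl1, a factor of the Tal1 family, had -0.36 (SE 0.14) and -0.46 (SE 0.14) in the authors' deposited tables and was called in old ATlo HSCs. Of the Krueppel-like and Sp factors, 16 peaks of 14 genes, 3 were lower in old AThi and 7 in old ATlo HSCs with none higher, and none was called after centring. Klf11 had -0.52 (SE 0.15) and -0.50 (SE 0.15) in the authors' deposited tables, and the stronger Klf13 peak, with a mean of 1044 normalised counts, had -0.49 (SE 0.14) in old AThi and -0.45 (SE 0.14) in old ATlo HSCs.

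Of the 33 AP-1 and immediate early genes with a promoter peak, 21 had a strong one (63.6%). So did 13 of 20 clock genes, 14 of 23 FoxO genes and 14 of 24 Krueppel-like and Sp genes. The level threshold sets these shares, which are the highest among the 35 lists. The interferon and antigen presentation list had 8.57%, and of all promoter peaks 14.9% were strong. Of the 21 AP-1 and immediate early promoters, 1 was lower in old AThi HSCs and 2 in old ATlo HSCs, and none was higher. After centring, 3 (Dusp2, Jund and Mcl1) and 2 (Dusp2 and Jund) were higher with none lower. The median log2 changes of the 21 were -0.14 and -0.26. Ier5 had -0.40 (SE 0.14, adjusted p = 0.043) in old AThi and -0.42 (SE 0.14, adjusted p = 0.0294) in old ATlo HSCs, and Dusp5, an ERK phosphatase, -0.39 (SE 0.15) and -0.48 (SE 0.15), called in old ATlo HSCs, in the authors' deposited tables. In the NF-kB list of 10 promoters, 3 were lower in old AThi and 2 in old ATlo HSCs, none after centring. The subunit Rel had -0.57 (SE 0.16) and -0.67 (SE 0.15), and the kinase Ripk1 -0.39 (SE 0.13) and -0.38 (SE 0.13), in old AThi and old ATlo HSCs in the authors' deposited tables.

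Because the old cells were sorted on an autophagy reporter, autophagy genes were looked at as well. Of 16 autophagy promoters, 1 was lower in each old group against young HSCs and none was higher, with medians of -0.18 in old AThi and -0.27 in old ATlo HSCs, while after centring 2 (Atg5 and Ulk1) and 1 (Ulk1, the kinase that starts autophagy) were higher and none lower. The lower ones were Atg16l2 in old AThi HSCs (log2 -0.42, SE 0.14, adjusted p = 0.0295) and Wipi1, a phosphoinositide-binding protein of early autophagosomes, in old ATlo HSCs (-0.58, SE 0.18, adjusted p = 0.0181), per the authors' deposited tables. The promoter of Map1lc3b, an LC3 gene, with a mean of 255 normalised counts, lay below the level threshold. Tfeb, the lysosomal master regulator, had -0.44 (SE 0.15, adjusted p = 0.0378) in old AThi and -0.43 (SE 0.15, adjusted p = 0.0418) in old ATlo HSCs, and it was the only one called among 9 lysosomal promoters, in the authors' deposited tables. It was not called with the strong promoter median set to 0 (adjusted p = 0.384 and 0.635) or with that of all peaks set to 0. Foxo3, a transcription factor that keeps HSCs quiescent and drives autophagy genes, has 2 strong promoter peaks only 56 bp apart. Their log2 changes in the authors' deposited tables were -0.40 (SE 0.16, adjusted p = 0.1) and -0.40 (SE 0.14, adjusted p = 0.0403) in old AThi HSCs, and -0.52 (SE 0.16, adjusted p = 0.0211) and -0.51 (SE 0.14, adjusted p = 0.00471) in old ATlo HSCs. Neither Foxo3 peak was called once the strong promoter median was set to 0.

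Of 14 circadian clock peaks, 2 were lower in old AThi and 3 in old ATlo HSCs and none was higher, while after centring Rora and 1 of both Per1 peaks were higher in both and none was lower. The repressor Nr1d2 had log2 changes of -0.44 (SE 0.15) in old AThi and -0.47 (SE 0.15) in old ATlo HSCs, and Arntl, which encodes BMAL1, -0.10 (SE 0.14) and -0.39 (SE 0.14), called in old ATlo HSCs, in the authors' deposited tables. Of 12 promoters of mitochondrial biogenesis, dynamics and DNA upkeep, 2 were lower in old AThi and 4 in old ATlo HSCs, while after centring Nrf1 and Polg2 were higher in old AThi HSCs, and Polg2 was higher and Polg lower in old ATlo HSCs. None of 17 respiratory chain promoters was called in old AThi HSCs and 3 were lower in old ATlo HSCs, none of them after centring. Atp5d, an ATP synthase subunit, had -0.37 (SE 0.16) in old AThi and -0.57 (SE 0.16) in old ATlo HSCs in the authors' deposited tables.

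In lists of transcription, ubiquitin and cell cycle genes no promoter was higher in either old group. Of 16 promoters of RNA polymerase II, Mediator and general factors, 2 were lower in old AThi and 4 in old ATlo HSCs, with -0.61 (SE 0.18) and -0.73 (SE 0.18) at Gtf2a1, a TFIIA subunit gene, in the authors' deposited tables. Of 12 ubiquitin conjugating enzymes and cullins, 1 (Cul3) was lower in old AThi and 4 in old ATlo HSCs, and of 18 Rab GTPases 0 and 4. Ube2d3 had -0.42 (SE 0.16) in old AThi and -0.61 (SE 0.16) in old ATlo HSCs in the authors' deposited tables. Of 13 DNA replication promoters 1 and 3 were lower, and of 11 peaks of G1 cyclins, kinases and inhibitors 1 and 2, among them Mcm4, of the replicative helicase, with -0.42 (SE 0.15) and -0.47 (SE 0.15) in the authors' deposited tables. After centring, none of these 5 lists held a call in either direction. In the nutrient sensing list, 0 of 13 peaks were called in old AThi and 3 were lower in old ATlo HSCs, whereas after centring Flcn was higher in old AThi HSCs.

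Other lists held few or no calls, except the TGF-beta, BMP and Wnt list in old ATlo HSCs. In the JAK-STAT list of 10, Socs3 was higher in old AThi and Socs5 lower in old ATlo HSCs, and after centring 2 (Socs3 and Jak1) and 1 (Socs3) were higher and none lower. Of 16 histone gene promoters 1 was lower in old AThi HSCs, of 6 aminoacyl-tRNA synthetase promoters 1 (Ears2) in each old group, and of 11 DNA repair promoters 1 (Fancc) in old ATlo HSCs. After centring none of these was called, and Ung, a repair glycosylase, was higher in both. Of 15 glycolysis promoters 1 was higher in old AThi HSCs (Slc16a1), and none was called in old ATlo HSCs, against 1 and 2 higher after centring. None of the 5 proteasome, 4 ETS factor, 5 mitosis and 3 interferon and antigen presentation promoters was called in either comparison, in the deposited calls or after centring. Among 10 promoters of HSC ageing markers, Klf6 alone was lower, in old ATlo HSCs (-0.43, SE 0.14, adjusted p = 0.0312, authors' deposited table), and it was not called after centring. In the TGF-beta, BMP and Wnt list 0 of 10 were called in old AThi and 4 were lower in old ATlo HSCs, none after centring. Smad6, an inhibitor of BMP signalling, had -0.35 (SE 0.15, adjusted p = 0.129) in old AThi and -0.64 (SE 0.15, adjusted p = 0.000827) in old ATlo HSCs in the authors' deposited tables. Among control genes, Gapdh had -0.15 (SE 0.14) in old AThi and -0.16 (SE 0.14) in old ATlo HSCs, not called, and Actb -0.35 (SE 0.19) and -0.59 (SE 0.19, adjusted p = 0.0276), called in old ATlo HSCs, in the authors' deposited tables.

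**Figure D4:**
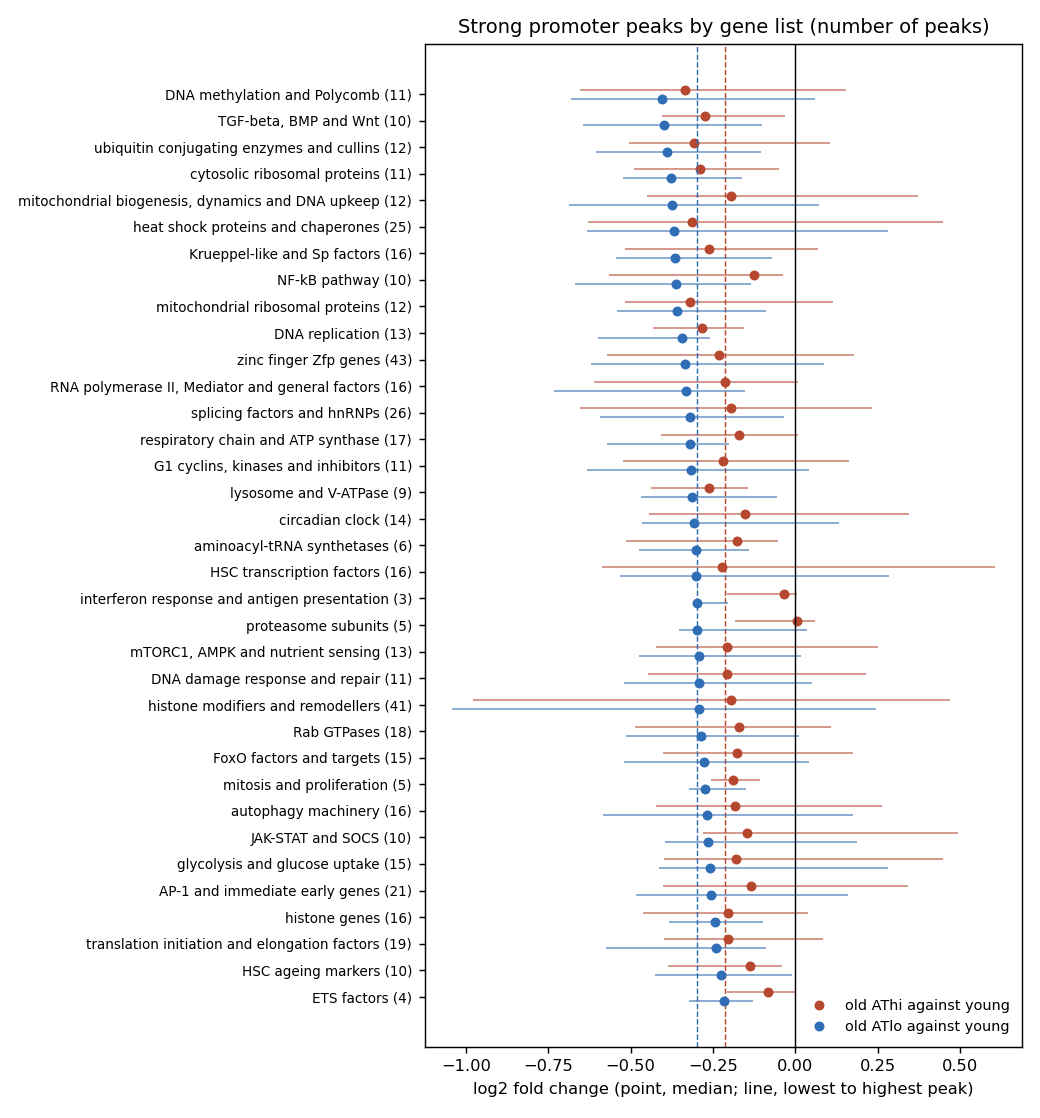
Log2 fold change against young HSCs of the strong promoter peaks in each of 35 gene lists (number of peaks in brackets), old AThi (red) above old ATlo (blue). Points are medians, lines run from the lowest to the highest peak and dashed lines are the medians of all strong promoters; list medians in old ATlo HSCs all lie below 0, those in old AThi HSCs lie below 0 except for proteasome subunits at 0.01, and most lie close to the dashed lines, which become 0 when the strong promoter median is set to 0.

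The comparison of the old fractions asks how AThi HSCs differ from ATlo HSCs of the same age. No peak was called at an adjusted p under 0.05 among strong promoters or over all 94410 peaks (0%), and the lowest adjusted p was 0.999998 in the authors' deposited table, the submitters naming DESeq2 as the tool. At an unadjusted p under 0.05, 24 strong promoters were higher in AThi HSCs, against 0.728% of all peaks, and 1 was lower, against 1.05% of all peaks. The median log2 change of strong promoters was 0.09, against 0.01 over all peaks, and 81.7% of them lay above 0. The whole 95% interval lay within 1.5-fold of no change at 2556 of them (94.5%) and within 2-fold at all 2704. Setting the strong promoter median to 0 left 0 calls. The old libraries form pairs, and whether the authors' fit used the pairing is not given in the sources used here. Over all peaks, both unadjusted shares together were smaller than p-values without any difference would give. The test may thus be conservative, and the absence of calls does not show that the fractions are alike.

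The promoters of smallest p were higher in AThi HSCs. In the authors' deposited table the log2 change of AThi over ATlo was 0.40 (SE 0.15, p = 0.0101) at Nfatc2ip, which binds an NFAT factor, 0.37 (SE 0.15, p = 0.0172) at Nedd8, a ubiquitin-like modifier, and 0.35 (SE 0.15, p = 0.0187) at Srxn1, the antioxidant enzyme sulfiredoxin. Tmem115, a Golgi protein, had 0.34 (SE 0.14, p = 0.0191) and Maff, a small Maf factor, 0.35 (SE 0.15, p = 0.0193) in the authors' deposited table. None passed adjustment. Computed levels of Srxn1 were 410 normalised counts in old AThi and 321 in old ATlo HSCs, and those of Nfatc2ip 395 and 300.1. In the other direction Efcab11 had -0.33 (SE 0.17, p = 0.0464) and Selenos, a selenoprotein of the endoplasmic reticulum, -0.28 (SE 0.17, p = 0.105) in the authors' deposited table.

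**Figure D5:**
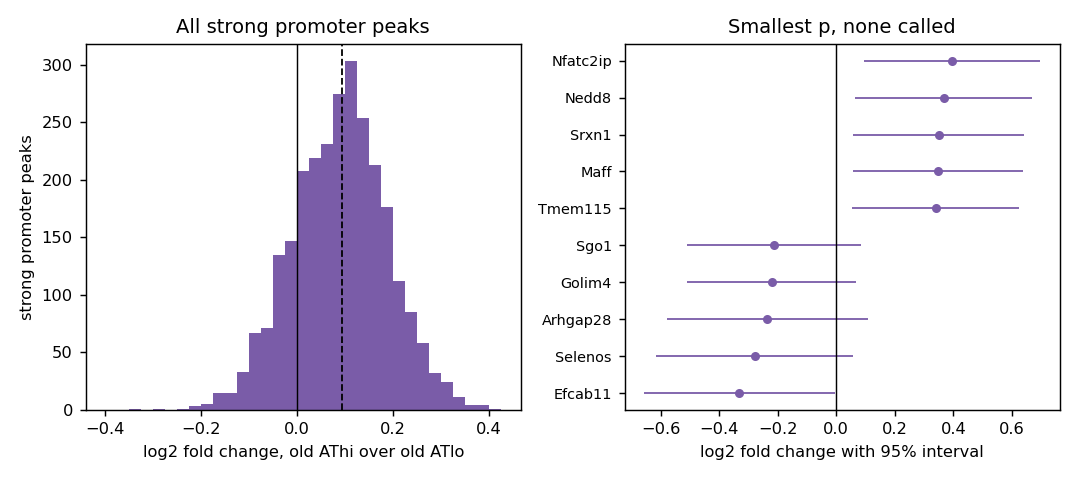
Left, number of strong promoter peaks by log2 fold change of old AThi over old ATlo HSCs, with a dashed line at the median of 0.09. Right, the 5 promoters of smallest p in each direction with 95% intervals; none was called, and the 5 higher intervals reach down close to 0.

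Chromosome X was described apart. It held 23 strong promoters (0.851%), against 3.81% of the other promoter peaks, and chromosome Y held none. The X-linked members had median log2 changes of -0.39 in old AThi and -0.41 in old ATlo HSCs, against -0.21 and -0.30 at 2681 autosomal members. Promoter peaks below the level threshold also lay lower on chromosome X. There the medians were -0.23 and -0.19 at 586 X-linked peaks, against -0.08 and -0.11 at 14809 autosomal ones. Of the 23, 1 was higher and 5 lower in old AThi HSCs, and 0 were higher and 9 lower in old ATlo HSCs. Kdm6a, a histone H3 demethylase, was the lowest in both (log2 -0.98, SE 0.37, adjusted p = 0.067 in old AThi and -1.04, SE 0.37, adjusted p = 0.0487 in old ATlo HSCs), per the authors' deposited tables. The RNA helicase gene Ddx3x had -0.69 (SE 0.19) and -0.64 (SE 0.19), and Tmem164 -0.50 (SE 0.17) and -0.65 (SE 0.17), in old AThi and old ATlo HSCs in the authors' deposited tables, and both were called in both. Kdm6a and Ddx3x are known to escape X inactivation. At Xist, the RNA of the inactive X, the peaks annotated as promoter are not members, with means of 29.5 and 13.5 normalised counts. The stronger one fell in both old groups, with -5.38 (SE 1.56, adjusted p = 0.00927) in old AThi and -4.65 (SE 1.45, adjusted p = 0.0206) in old ATlo HSCs as log2 changes in the authors' deposited tables. The 21 peaks on chromosome Y had median log2 changes of 0.52 in old AThi and 0.35 in old ATlo HSCs, and none was called. The sex of the mice was not given, and the part of a difference in sex between the groups in these results was not tested. On the autosomes alone, 42 strong promoters were higher and 260 lower in old AThi HSCs, and 21 were higher and 554 lower in old ATlo HSCs.

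Other peaks of the same genes were set beside their promoters. Outside promoters, the genes with a strong promoter had 10475 peaks, with a median log2 change of -0.04 in old AThi HSCs and -0.01 in old ATlo HSCs. Of these peaks 6.36% were higher and 2.22% lower in old AThi HSCs, against 7.95% and 2.18% of the peaks outside promoters of other genes, and 6.26% and 1.51% were higher and lower in old ATlo HSCs, against 7.44% and 1.40%. Of the 265 genes whose strong promoter was lower in old AThi HSCs, 43 had a higher (16.2%) and 26 a lower peak (9.81%) outside promoters. Of the 43 genes whose strong promoter was higher, 11 had a higher (25.6%) and 5 a lower one (11.6%). Of the 2378 genes with neither call, 395 (16.6%) and 173 (7.28%) did. The median number of peaks outside promoters was 4, 5 and 3 in these sets, so genes with a call had more peaks that could be called. In old ATlo HSCs, 82 of 559 genes with a lower strong promoter had a higher (14.7%) and 43 a lower peak (7.69%) outside promoters, against 354 (16.8%) and 102 (4.83%) of the 2110 genes with neither call. Of the 21 genes with a higher strong promoter, 5 had a higher and 0 a lower one.

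There were 26 genes with 2 strong promoter peaks, in 10 cases with under 2000 bp between both peaks. The peaks of 1 gene differed in log2 change by a median of 0.13 in old AThi and 0.19 in old ATlo HSCs, about as much as 1 SE. The largest difference in old AThi HSCs was at Bicdl1, with 0.64 (SE 0.16, adjusted p = 0.00153) at one peak and -0.06 (SE 0.14) at the other in the authors' deposited table. The largest in old ATlo HSCs was at Tet3, with the values given above (0.60 between its peaks, against 0.57 at Bicdl1). Promoters with an opposite-strand start site within 1 kb made up 17.4% of the 265 lower calls and 4.65% of the 43 higher calls in old AThi HSCs, against 10.4% of the 2396 members with neither call. In old ATlo HSCs they made up 13.5% of lower calls, against 10.4% of members with neither call. The members with such a start had median log2 changes of -0.25 in old AThi and -0.33 in old ATlo HSCs, against -0.21 and -0.29 without one.

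Sequence composition was set beside the calls. The 27 genes with 1 window whose strong promoter was higher in old AThi HSCs had a median GC content of 70.7%, against 64.7% at 167 genes with a lower one and 64.0% at 1483 genes with neither call. A GC box lay in 96.3% of the higher set, against 80.2% of the lower set and 79.4% of the rest, as in the Cnnm3, Slc25a16 and Trim9 windows printed above. A CCAAT box lay in 29.6%, against 49.7% and 53.7%. By the calls in old ATlo HSCs, the median GC content was 66.7% at 15 genes with a higher strong promoter. It was 65.7% at 346 genes with a lower one and 63.7% at 1318 with neither call. A GC box lay in 93.3%, 84.4% and 78.4% of these sets, and a CCAAT box in 26.7%, 48.8% and 54.2%. The window of Pm20d2, also called higher in both old groups but not printed, had a GC content of 45%. Its ratio of observed to expected CpG was 0.33, and it held 1 GC box. Over the 14 motifs, the median log2 change of promoters holding a motif lay between -0.25 (ETS, 106 genes) and -0.08 (CRE, 57 genes) in old AThi HSCs and between -0.33 (ETS) and -0.19 (CRE) in old ATlo HSCs. The CRE lay in 6 of 167 windows of lower promoters in old AThi HSCs (3.59%), against 3.37% of those with neither call, and in 4 of 346 in old ATlo HSCs (1.16%), against 3.95%. These shares are descriptions of 14 motifs searched, and no difference between them was tested.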

How the data were processed

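ATAC-seq libraries of 3 old AThi, 3 old ATlo and 5 young HSC samples were compared. Per the labels' protocols, transposition lasted 30 min at 37 °C, and paired reads of 150 bp were sequenced. The submitters' processing notes name BWA, Trim Galore, cutadapt, DESeq2, featureCounts, ChIPseeker and MACS2, with no version or setting. A shift of reads for the transposase, the treatment of duplicates and how libraries' peaks were joined into 1 set are not given in the sources used here, and these steps set peak borders and levels.

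The deposited files are 3 tables of the authors' comparisons over the same 94410 peaks, with 0 columns of values per sample. Per the file headers, which carry the column names of DESeq2, the mean normalised count is the authors' signal value per peak, a count divided by size factors and averaged over libraries. The authors' deposited log2 fold changes come with their SEs on the log2 scale, and the authors' Wald statistic, a score, is their quotient. The authors' deposited p-values and adjusted p-values were not recomputed for the main counts. For 1831 peaks with a level of at most 5.96 the tables against young HSCs hold no adjusted p, which concerned 0 strong promoters. All 3 tables come from 1 fit, since the first 2 log2 changes differ by the third to within 1.02e-14. The design foresaw refits of counts per library, which the tables do not allow.

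Computed here with Python 3.11.15, pandas 2.3.3, numpy 2.4.6 and scipy 1.17.1 were the counts, medians, 95% normal intervals and group levels, from the mean level, the library numbers and both fold changes. Alternative scalings shifted every log2 change by 1 value and recomputed p-values from the deposited SEs. They redid the Benjamini-Hochberg adjustment over all tested peaks. The code was tested on simulated data with normal errors and a known shift. That checks the code and not whether such a shift suits these data. Gene identifiers were matched to RefSeq symbols for 20791 of 20810. The notes name GRCm38 and mm39. Coordinates were taken as mm39, because only 273 of the matched genes ended at the same base in GRCm38.p6. RefSeq promoter windows matched 2205 of the 2678 genes.

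The members, the 35 gene lists and the marker lists were chosen with earlier results of these data known. Named genes followed a rule: 10 of smallest p in each direction and comparison with young HSCs, 5 in each direction between the old fractions, the 10 highest and 5 widest, 3 on each side of the threshold, 3 of smallest p per list, and control genes, passing over predicted genes. The genes Arid1b, Atg5, Bag3, Bicdl1, Ctnnal1, Cul3, Ddx3x, Dusp2, Flcn, Jak1, Kdm6a, Kit, Ldb1, Mbd4, Mcl1, Mef2c, Nrf1, Per1, Polg2, Rora, Tagln2, Tal1, Tet3, Tmem164, Ulk1, Ung and Xist lie outside that rule and were named after their values were seen. Some genes that the rule or a list would name are not reported here.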

Additional observations from a re-analysis of the deposited data

How the results depend on the processing

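Without chromosomes X and Y, with 1 peak a gene, with peaks over the start site alone or with adjustment over every peak, the counts of called strong promoters stayed within 1.5 times of 308 in old AThi and 584 in old ATlo HSCs, and the medians kept their sign. The counts moved further with other limits. At a level of at least 200 there were 619 calls (152 higher, 467 lower) in old AThi and 974 (86 higher, 888 lower) in old ATlo HSCs, and at a level of at least 500 there were 73 (5 higher, 68 lower) and 191 (3 higher, 188 lower). An adjusted p under 0.01 left 94 (27 higher, 67 lower) and 149 (14 higher, 135 lower), and a change of at least 1.5-fold left 54 and 72. With the strong promoter median set to 0 there were 152 calls (143 higher) and 118 (113 higher). This turns the split by direction, since that setting takes away the shared change of strong promoters by construction. Among values of promoters named by the rule or in the text, that setting left 205 on their side of the threshold. It ended 134 calls and added 29. Setting the median of all peaks to 0 left 334, ended 32 and added 2. None changed direction while called, which was fixed in advance. Strong promoters called lower had changes of -0.35 or lower, and the settings added at most 0.30. No paired analysis was possible because the tables hold comparisons and no values per library. For the same reason leaving out a library and refits with edgeR or DESeq2 were not run. Depth per library is unknown, and precision was read from the SEs alone.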
